A study of Homo sapiens with 4 samples.

Results

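Skipped exons of 9 genes that sense foreign RNA or answer interferon were examined in cells transfected with RNA. The genes were ADAR, EIF2AK2, IFIH1, OAS1, MAVS, IRF3, STAT2, GBP3 and IFI35. An event, meaning a skipped exon with its upstream and downstream exon, was taken when its skipped exon, or both of its flanking exons, had the exact hg38 coordinates and strand of a GENCODE release 29 exon of one of these genes. The rule found 27 of the 48620 events listed, all 27 in both groups, with 20 different skipped exons in 7 genes. No event was matched for OAS1 or IFI35. The cells were MDA-LM2, a human breast cancer line derived from MDA-MB-231 and selected for metastasis to lung. One group received the SSE mimetic, an RNA that copies a structured splicing element, and the control group a scrambled oligo, both by lipofection, and untransfected cells were not analysed here. Each group had 2 samples, which the deposited tables hold as 1 read set per group, so no value per sample, no spread between replicates and no test across samples can be given. Intervals below cover counting error only, for reads that are not known to be independent molecules.

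Double-stranded RNA in the cytoplasm is bound by the helicase MDA5, the product of IFIH1, by the kinase PKR, the product of EIF2AK2, and by OAS1. MDA5 signals through the mitochondrial adaptor MAVS to the transcription factor IRF3, which switches on interferon genes. Secreted interferon then acts through STAT2 and its partners to induce genes such as GBP3, a guanylate-binding protein gene, and IFI35. ADAR deaminates adenosines in double-stranded RNA, which keeps the cell's own RNA from being sensed. Several of these genes have annotated forms that lose the reading frame or are predicted targets of nonsense-mediated decay, the pathway that destroys transcripts with an early stop codon.

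The exons on which the results turn are shown here as GENCODE release 29 transcript sequence (GRCh38), 5′ to 3′. The first is the coding part of an ADAR exon found only in a transcript marked for nonsense-mediated decay (chr1:154586820-154586941, minus strand), with its stop codon in capitals.
ADAR exon: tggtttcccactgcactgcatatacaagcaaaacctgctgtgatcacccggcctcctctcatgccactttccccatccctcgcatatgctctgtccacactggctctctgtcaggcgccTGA
The second is the coding part shared by both forms of a GBP3 exon (chr1:89020532-89020721, minus strand), which carries the start codon, in capitals.
GBP3 shared part: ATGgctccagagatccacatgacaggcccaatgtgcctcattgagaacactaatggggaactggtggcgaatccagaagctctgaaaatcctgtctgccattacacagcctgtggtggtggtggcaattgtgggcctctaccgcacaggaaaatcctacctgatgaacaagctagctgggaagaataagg
The longer form of this exon runs on into the sequence that is intron for the shorter form. Its added coding bases (chr1:89020431-89020531, minus strand) begin with gt, the first bases of the shorter form's intron, and end in a stop codon, in capitals.
GBP3 extension: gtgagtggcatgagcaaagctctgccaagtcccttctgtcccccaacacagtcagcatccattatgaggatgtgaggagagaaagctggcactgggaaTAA
A coding exon of MAVS (chr20:3857635-3857809, plus strand), shown because both groups had reads that skip it, is 175 nt long, which is not a whole number of codons.
MAVS exon: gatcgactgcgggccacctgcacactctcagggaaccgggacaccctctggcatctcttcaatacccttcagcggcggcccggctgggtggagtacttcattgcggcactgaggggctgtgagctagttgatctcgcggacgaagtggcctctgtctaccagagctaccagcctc

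Summed over the 45977 events in both tables, reads that matched neither form of an event made up 95.3% after the SSE mimetic and 88.8% after the scrambled oligo. Isoform-specific reads, those that fit only inclusion or only skipping, were 4.73 times as many in the scrambled group, while reads matching neither were 1.54 times as many. On the 20 exons, isoform-specific reads ranged from 0 to 51 after the SSE mimetic and from 2 to 177 after the scrambled oligo. As a check of the label, 6 genes were listed for a breast cancer line of mesenchymal kind, and 4 had an event (CD44, KRT8, LGALS1 and ANXA1). They had 16 to 1398 reads fitting an exon form after the SSE mimetic and 243 to 10893 after the scrambled oligo, with ANXA1 lowest in both. KRT8, with 289 and 951, is an epithelial keratin gene and does not mark the mesenchymal kind. The 3 of 5 leucocyte genes (PTPRC, CD3E and LYZ) had 12 to 32 and 17 to 34, and the 4 of 5 luminal genes (CDH1, ESR1, ESRP1 and GATA3) 6 to 56 and 6 to 94. The 2 of 4 fibroblast genes (DCN and PDGFRB) had 16 to 47 and 24 to 70, and the 2 of 3 endothelial genes (CDH5 and VWF) 2 to 29 and 13 to 37. ANXA1 after the SSE mimetic thus lay within the range of the leucocyte, luminal and endothelial genes. It equalled PDGFRB, the lower of the fibroblast genes.

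Of the 20 exons, 9 in 5 genes reached the minimum of 10 isoform-specific reads per group and were compared. An exon was called where the authors' deposited table gave a Bayes factor of at least 10 and the percent spliced in (Ψ, the estimated fraction of transcripts that keep the exon) differed by at least 0.1. By this rule 3 exons were called higher after the SSE mimetic, 1 of ADAR and 2 overlapping forms of 1 exon of GBP3. None was called lower and 6 were not called. Among all 8228 compared exons, 3.99% were called, 3.1% higher and 0.887% lower. The 3 calls rest on 2 sites of the genome, because the GBP3 forms overlap and have the same flanking exons.

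**Figure D1:**
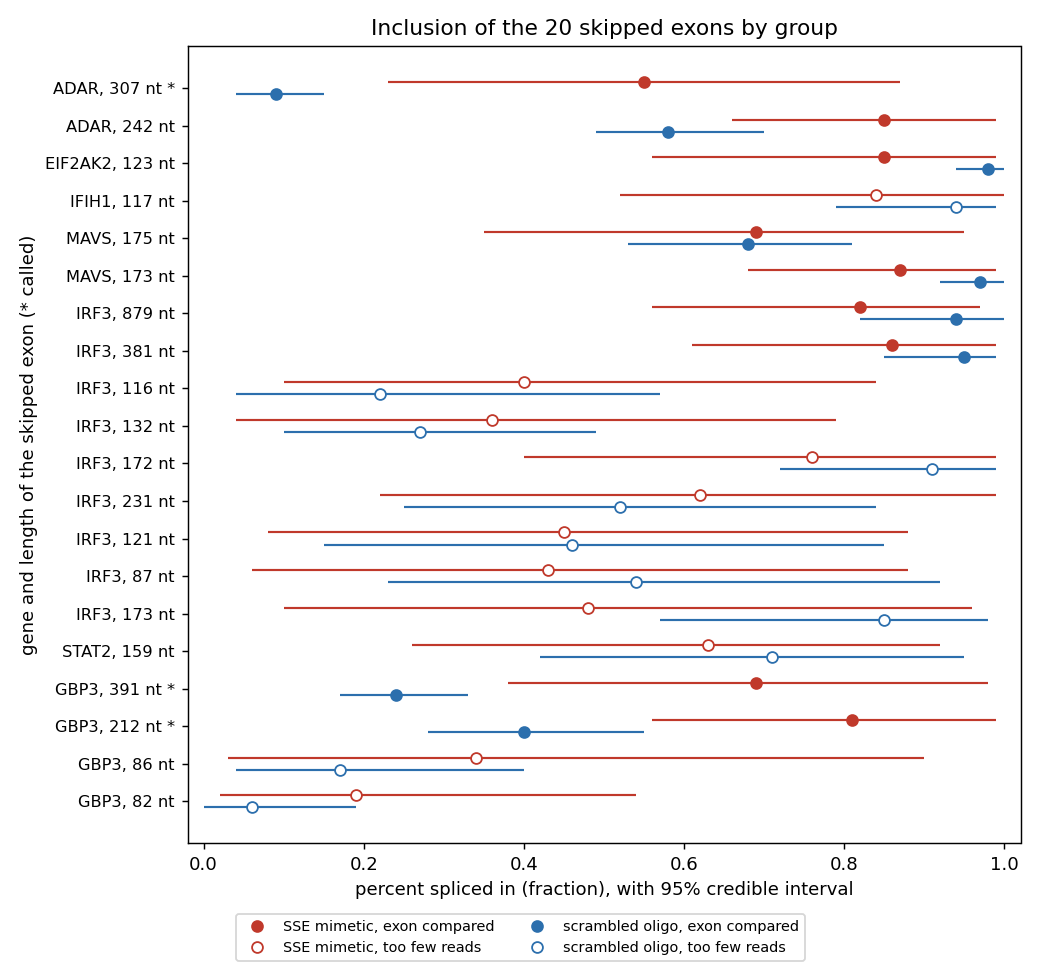
Percent spliced in (x axis, fraction) of the 20 skipped exons (y axis, gene and exon length) after the SSE mimetic in red and the scrambled oligo in blue; points are the authors' estimates for 1 read set per group, lines their 95% credible intervals, and open points mark exons with too few reads to compare. The intervals are apart for the 307 nt ADAR exon and the 391 and 212 nt GBP3 exons.

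The plot of Ψ by exon shows that the 95% credible intervals of the groups were apart for 3 of the 9 compared exons, the 3 called ones, where 5.87% of all compared exons had intervals apart. For the other 6 the intervals overlapped. The median difference, SSE mimetic minus scrambled, was 0.01 over the 9 exons and -0.03 over all compared exons, and 4 of the 9 were below 0 and 5 above. No skipping read was found in either group for 5 of the 9, and for 54.8% of all compared exons, so for these Ψ rests on inclusion and shared reads alone.

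ADAR, the RNA-editing enzyme, had the largest difference of the 9. Its 307 nt exon (chr1:154586635-154586941) had a Ψ of 0.55 (95% credible interval 0.23 to 0.87) after the SSE mimetic and 0.09 (0.04 to 0.15) after the scrambled oligo. In the authors' deposited table the difference was 0.46 and the Bayes factor 23.15. This is the exon with the TGA stop codon printed above, and no coding transcript of the annotation contains it. Inclusion reads numbered 9 in both groups. Skipping reads numbered 1 after the SSE mimetic and 17 after the scrambled oligo, and shared reads, which fit both forms, 10 and 61. The groups thus had the same number of inclusion reads and differed in the reads that skip the exon or fit both forms. These raw counts are not at equal depth. Summed over all events in both groups, reads fitting a form were 0.254 times as many after the SSE mimetic as after the scrambled oligo. The equal inclusion counts depart from that ratio. Inclusion made up 90.0% of isoform-specific reads after the SSE mimetic (95% Clopper-Pearson interval 55.5 to 99.7) and 34.6% after the scrambled oligo (17.2 to 55.7). Fisher's exact test (two-sided) on these reads, which compares the read sets and not the conditions, gave an unadjusted p of 0.00723 and an adjusted p of 0.268 over all compared exons. That test passed for 1.01% of all compared exons after adjustment and for 5.51% before it.

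The ADAR exon stood at the minimum, with exactly 10 reads of inclusion or skipping after the SSE mimetic. Reads matching neither form were denser on its flanking introns than inclusion reads on the exon itself. Per kilobase, the exon had 29.3 inclusion reads in both groups, against 66.7 reads matching neither form on the introns after the SSE mimetic and 232 after the scrambled oligo. Reads matching neither form can include spliced reads that leave the event. When reads at that density were subtracted before Ψ was recomputed with a model of 2 isoforms, no inclusion read was left in either group and no shared read after the SSE mimetic. A single skipping read then remained in that group, so the exon was no longer called and no difference could be measured; without subtraction the model gave 0.469.

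The second ADAR exon (chr1:154602385-154602626) is 242 nt long and lies in the 5′ untranslated region of a coding transcript whose annotated coding sequence starts further downstream. It had the most reads of any exon in the set fitting one form or both, and was not called. Its Ψ was 0.85 (0.66 to 0.99) after the SSE mimetic and 0.58 (0.49 to 0.70) after the scrambled oligo, and the intervals meet. The authors' deposited table gives a difference of 0.27 and a Bayes factor of 3.31. With a more distant upstream exon the same skipped exon had 0.83 (0.60 to 0.99) and 0.50 (0.41 to 0.60), a difference of 0.33 and a Bayes factor of 7.19 in the authors' deposited table. Inclusion reads numbered 51 and 127 for the first of these events, shared reads 311 and 1206, and no skipping read was seen in either group. With a count of 0 taken here and below as at most 3 reads, the skipping share can be up to 5.88% of isoform-specific reads after the SSE mimetic. After the scrambled oligo it can be up to 2.36%. The difference in Ψ therefore came with a difference in shared reads per inclusion read, 6.10 against 9.50, and not in skipping reads.

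**Figure D2:**
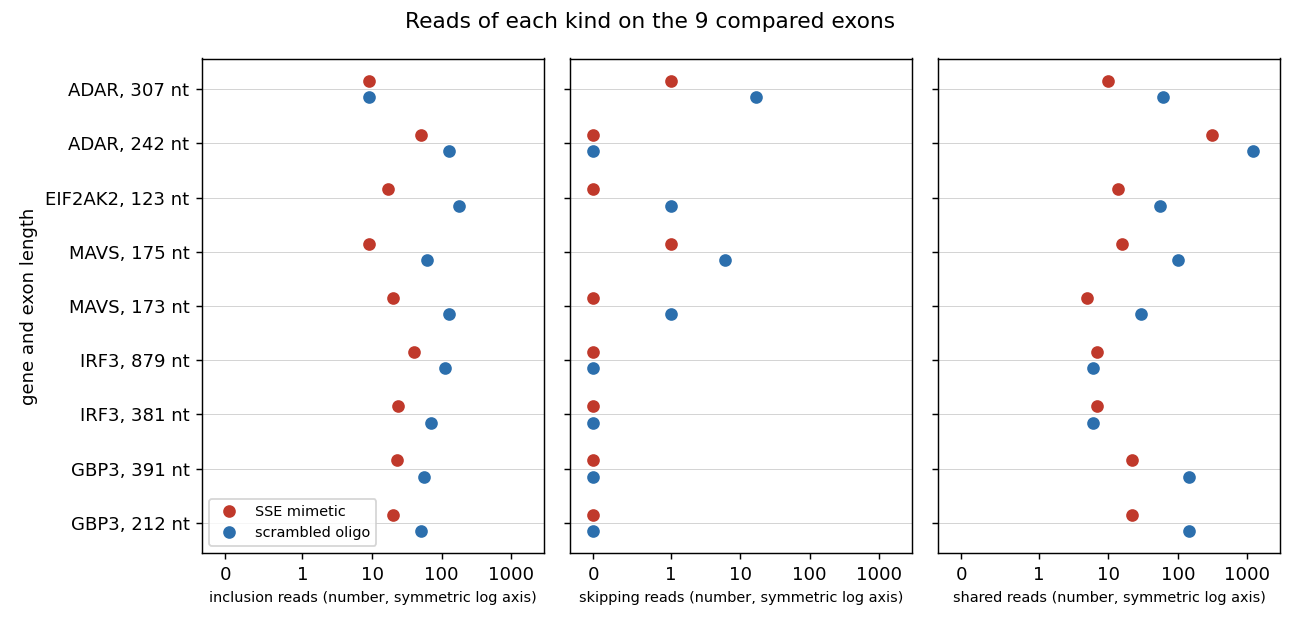
Inclusion, skipping and shared reads (x axes, numbers on a symmetric log axis) on the 9 compared exons (y axis) after the SSE mimetic in red and the scrambled oligo in blue, each point 1 read set. The 307 nt ADAR exon has 9 inclusion reads in both groups, and both groups are at 0 skipping reads for 5 exons.

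Of the sensors, EIF2AK2 had 1 exon compared, IFIH1 had 1 exon with too few reads, and OAS1 had none matched. The EIF2AK2 exon (chr2:37126289-37126411) is a coding exon of 123 nt, a whole number of codons. Its Ψ was 0.85 (0.56 to 0.99) after the SSE mimetic and 0.98 (0.94 to 1.0) after the scrambled oligo, and the intervals overlapped. It had 17 inclusion reads and no skipping read after the SSE mimetic, and 176 and 1 after the scrambled oligo. Inclusion of this exon was thus close to complete in the scrambled group, and in the SSE mimetic group the 0 skipping reads allow a skipping share of up to 17.6%. The authors' deposited table gives a difference of -0.13 and a Bayes factor of 0.28. The IFIH1 coding exon (chr2:162279996-162280112, 117 nt) had 8 isoform-specific reads after the SSE mimetic and 30 after the scrambled oligo. Its Ψ was 0.84 (0.52 to 1.0) and 0.94 (0.79 to 0.99).

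MAVS, the adaptor downstream of MDA5, had 2 neighbouring exons compared, and neither was called. The exon printed above (chr20:3857635-3857809) is present in 1 annotated transcript. Another coding transcript lacks it and starts its coding sequence in the next exon. Its Ψ was 0.69 (0.35 to 0.95) after the SSE mimetic and 0.68 (0.53 to 0.81) after the scrambled oligo, the smallest difference of the 9. Skipping reads were found in both groups, 1 beside 9 inclusion reads after the SSE mimetic and 6 beside 62 after the scrambled oligo. Inclusion thus made up 90.0% (55.5 to 99.7) and 91.2% (81.8 to 96.7) of isoform-specific reads. The width of these intervals sets the size of a difference that could be seen at this depth. The next exon (chr20:3861332-3861504, 173 nt) had 0.87 (0.68 to 0.99) and 0.97 (0.92 to 1.0). It had 20 inclusion reads and 0 skipping reads after the SSE mimetic, and 126 and 1 after the scrambled oligo.

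IRF3, the transcription factor activated through MAVS, supplied 15 of the 27 events and 9 of the 20 exons, many of them overlapping. The 2 compared exons share their upstream end and differ in where they stop, so they share reads. The 879 nt form (chr19:49661450-49662328), found only in a transcript marked for nonsense-mediated decay, had a Ψ of 0.82 (0.56 to 0.97) after the SSE mimetic and 0.94 (0.82 to 1.0) after the scrambled oligo. It had 40 and 112 inclusion reads, no skipping read in either group, and 7 and 6 shared reads. Inclusion reads on it were about as dense as reads matching neither form on its introns, 45.5 against 47.4 per kilobase after the SSE mimetic and 127 against 126 after the scrambled oligo. The 381 nt coding form (chr19:49661948-49662328) had 0.86 (0.61 to 0.99) and 0.95 (0.85 to 0.99), with 24 and 71 inclusion reads. The authors' deposited table gives Bayes factors of 0.39 and 0.30 for these forms.

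The other 7 IRF3 exons had 0 to 5 isoform-specific reads after the SSE mimetic and 2 to 28 after the scrambled oligo, too few to compare. Their intervals all overlapped, and the Bayes factors in the authors' deposited table ran from 0.53 to 1.11. The widest gap was at a coding exon (chr19:49664674-49664846, 173 nt), with 0.48 (0.10 to 0.96) against 0.85 (0.57 to 0.98) from 1 and 16 isoform-specific reads. A further coding exon comes in forms of 116 and 132 nt, and the longer form adds GCTCCTGGGCCCCCAG at its upstream end (chr19:49660829-49660844, minus strand). Their Ψ was 0.40 and 0.36 after the SSE mimetic and 0.22 and 0.27 after the scrambled oligo, from at most 4 isoform-specific reads per group. The upstream flanking exon of several IRF3 events overlaps BCL2L12 on the opposite strand, and whether reads were assigned by strand is not given in the sources used here.

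STAT2, which carries the interferon signal to the nucleus, had 1 coding exon (chr12:56351292-56351450, 159 nt) with 4 and 10 isoform-specific reads, all of inclusion. Its Ψ was 0.63 (0.26 to 0.92) after the SSE mimetic and 0.71 (0.42 to 0.95) after the scrambled oligo, and it was not compared.

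Among the effectors, both calls were in GBP3. The 391 nt form of its start-codon exon (chr1:89020353-89020743), which carries the printed extension with the TAA stop codon and is found only in a transcript marked for nonsense-mediated decay, had a Ψ of 0.69 (0.38 to 0.98) after the SSE mimetic and 0.24 (0.17 to 0.33) after the scrambled oligo. The 212 nt form (chr1:89020532-89020743), found in 6 annotated transcripts of which 1 is protein-coding, had 0.81 (0.56 to 0.99) and 0.40 (0.28 to 0.55). Both forms were therefore called higher, the one that the protein-coding transcript uses as well as the one with the early stop. In the authors' deposited table the differences were 0.45 and 0.41 and the Bayes factors 17.44 and 10.02, the latter just past the minimum of 10.

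No read skipped the GBP3 exon in either group. The 391 nt form had 23 inclusion reads after the SSE mimetic and 55 after the scrambled oligo, and the 212 nt form 20 and 50. The inclusion counts of the forms thus differ by 3 and 5, but reads that fit only 1 of the forms were not counted. Shared reads numbered 22 and 145 for each form. Shared reads per inclusion read of the 391 nt form were thus 0.957 after the SSE mimetic and 2.64 after the scrambled oligo. The 0 counts allow a skipping share of up to 13.0% and 5.45% of isoform-specific reads, and Fisher's exact test, which reads only inclusion against skipping, gave an adjusted p of 1 for both forms. The difference in Ψ here rests on how inclusion reads compare with reads of the flanking exons. The exon of the 391 nt form had 58.8 inclusion reads per kilobase after the SSE mimetic and 141 after the scrambled oligo, and its introns 40.3 and 64.6 reads matching neither form. An annotated GBP3 exon of 86 nt lies within these introns, so the reads matching neither form can include spliced reads. Subtraction of reads at the intron density took the recomputed difference of the 391 nt form from 0.432 to 0.326, where it was not called, and that of the 212 nt form from 0.422 to 0.445, where it was. GBP genes are close paralogs, and reads that fit more than 1 of them may have been assigned to GBP3 or left out.

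The other 2 GBP3 exons had no isoform-specific read after the SSE mimetic and at most 5 after the scrambled oligo, and were not compared.

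**Figure D3:**
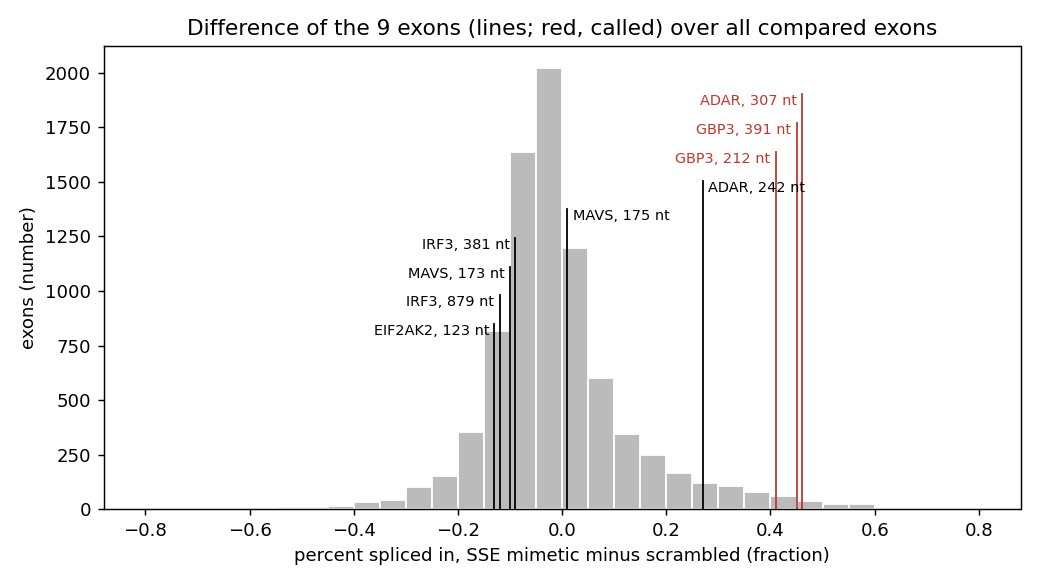
Number of exons (y axis) by difference in percent spliced in, SSE mimetic minus scrambled (x axis, fraction), for all 8228 compared exons in grey, with lines at the 9 exons described here (red, called; line heights carry no value). The called ADAR and GBP3 exons lie between 0.41 and 0.46, in the upper tail.

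The share of exons called higher differed with the level of inclusion in the scrambled group. Of the 9 exons, the 3 called ones were the only ones with a Ψ of at most 0.5 in the scrambled group. Among all compared exons with a scrambled Ψ of at most 0.25, 12.0% were called higher (173 of 1444), and the median difference was 0.05. With a scrambled Ψ above 0.25 and up to 0.5 these were 14.2% (70 of 493) and 0.19. Above 0.9, where 4 of the 9 exons lay, Ψ cannot rise by the 0.1 that a call needs. None of these 3779 exons could therefore be called higher. Their median difference was -0.07, beside differences of -0.13 to -0.09 in EIF2AK2, IRF3 and MAVS. Since the bins use the same scrambled values as the differences, these shares are a description.

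**Figure D4:**
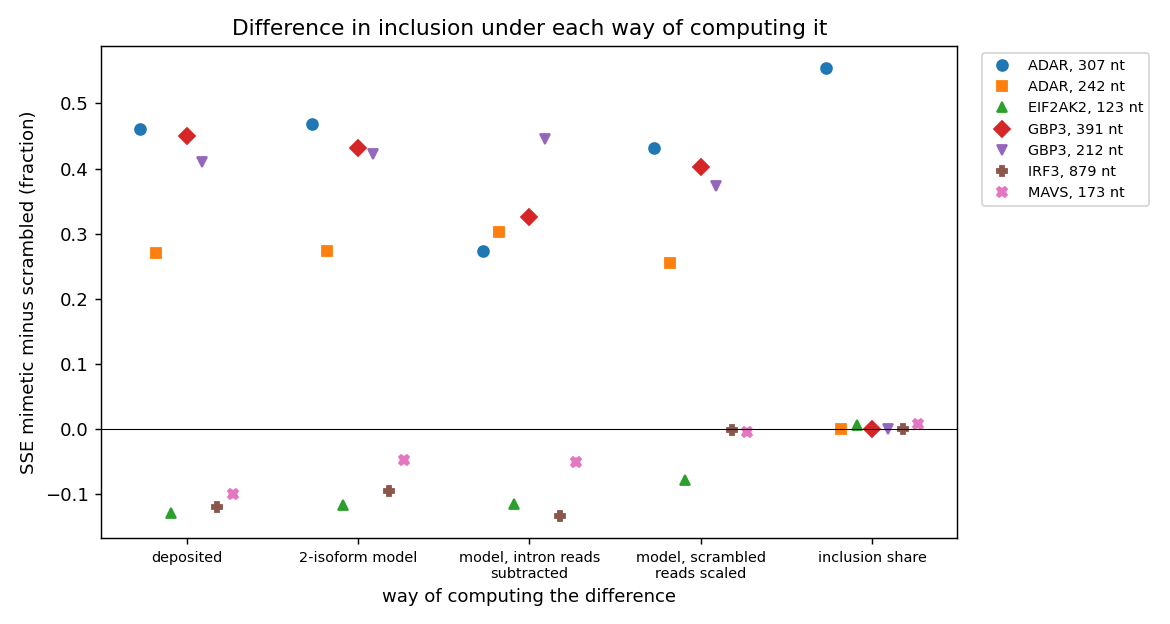
Difference in inclusion, SSE mimetic minus scrambled (y axis, fraction), of 7 exons under 5 ways of computing it (x axis): the authors' value, a model of 2 isoforms on the deposited reads, on those reads after subtraction of intron reads, with scrambled reads scaled down, and the share of inclusion among isoform-specific reads. After subtraction the point of the 307 nt ADAR exon rests on 1 read of the SSE mimetic group and on the flat prior, and with no skipping read both GBP3 forms can only be at 0 with the inclusion share.

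The plot of 5 ways of computing the difference shows which calls held. With the scrambled reads multiplied by 0.211, the ratio of all isoform-specific reads, the recomputed differences were 0.432 for the 307 nt ADAR exon, 0.402 for the 391 nt GBP3 form and 0.373 for the 212 nt form, and none of the 3 was called. The recomputed Bayes factors were then 9.48, 5.36 and 2.65. At these 3 exons that factor leaves fewer isoform-specific reads than the SSE mimetic group had, so the loss of the calls is not a comparison at equal depth. The share of inclusion among isoform-specific reads differed by 0.554 for ADAR, with the Fisher's exact test given above. For both GBP3 forms it was 1 in both groups by construction, since neither group had a skipping read. Read depth differs between the groups as a whole, so its part and that of the treatment cannot be told apart.

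Other genes of the pathway were taken from a list. Of 132 genes of RNA sensing and interferon signalling listed as sensors, adaptors, transcription factors, receptors or induced effectors, 39 had a compared exon, 64 exons in all. Of these, 1 was called higher, 0 lower and 63 were not called, a count too small to set apart from the 3.99% called among all compared exons. The median difference was -0.04, against -0.03 over all compared exons. The called exon (chr11:320113-320248) is in IFITM3, which encodes a membrane protein that blocks virus entry. No coding transcript holds it, and a transcript marked for nonsense-mediated decay does. It had a Ψ of 0.28 (0.13 to 0.50) after the SSE mimetic and 0.04 (0.02 to 0.07) after the scrambled oligo, from 7 inclusion and 5 skipping reads against 4 and 10. Subtraction of intron reads took its recomputed difference from 0.236 to 0.0655 and ended the call. IFITM genes are also close paralogs. The largest difference of the 64 was 0.40 in STAT3, followed by IFITM3 and by 0.20 in PARP14, a poly-ADP-ribosyltransferase gene, and the lowest were -0.26 in PLSCR1, -0.21 in IFI44 and -0.20 in XAF1. In the authors' deposited table the Bayes factors of these exons other than IFITM3 ran from 0.74 to 3.34. By Fisher's exact test 0 of the 64 exons passed, also unadjusted, but 50 of them had no skipping read in either group and could not pass.

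The files hold no expression table, so the reads that fit an exon form (inclusion, skipping and shared) of the event with the most such reads served as a rough measure of how many reads each gene had. Among 8456 genes with at least 50 such reads in both groups together, the median ratio of SSE mimetic to scrambled was 0.30 (interquartile range 0.198 to 0.509). In the 6 genes of the set with enough reads the ratios ran from 0.134 to 0.398, with a median of 0.248. The order against all genes depends on the reads used: with isoform-specific reads only the medians were 0.312 for these genes and 0.227 for all, and with reads of all 4 classes 0.478 and 0.518. EIF2AK2 had 31 and 232 reads, a ratio of 0.134 (95% exact interval 0.0887 to 0.195), below which lay 8.33% of genes. MAVS had 26 and 170 (0.153, 0.0971 to 0.232). GBP3 had 45 and 200 (0.225, 0.159 to 0.312), ADAR 362 and 1333 (0.272, 0.241 to 0.305), and IFIH1 13 and 47 (0.277, 0.137 to 0.520). IRF3 stood highest, with 47 and 118 (0.398, 0.278 to 0.563). The intervals of ADAR, IFIH1 and GBP3 overlapped each other, and those of EIF2AK2 and MAVS lay below the median of all genes. No gene of the set was above the upper quartile of all genes and 2 were below the lower one.

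**Figure D5:**
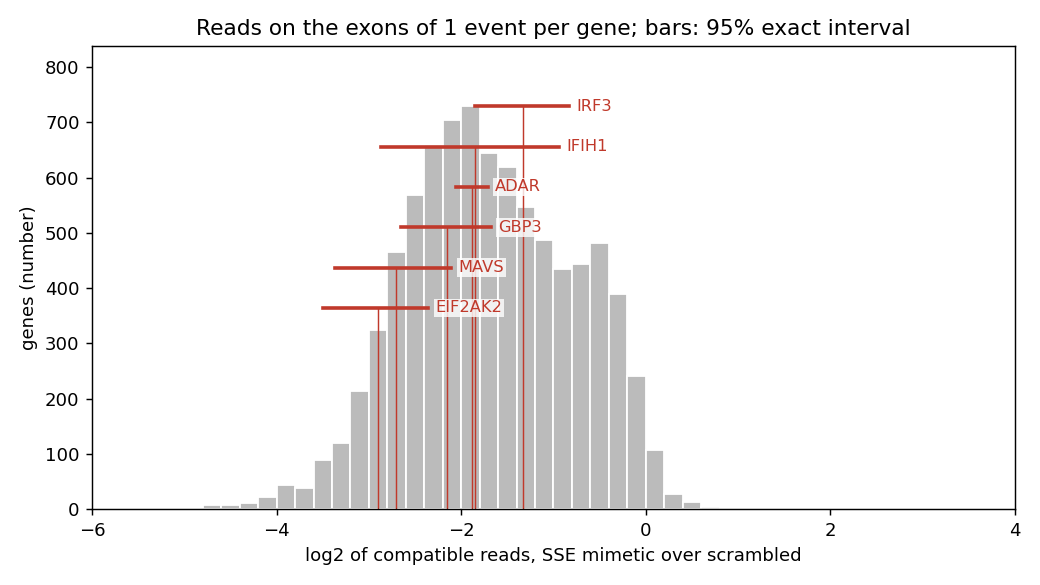
Number of genes (y axis) by log2 ratio of reads fitting an exon form, SSE mimetic over scrambled (x axis), for 8456 genes in grey; red lines mark the 6 genes with enough reads, and red bars their 95% exact intervals (heights carry no value). All 6 lie below 0, as most genes do, with EIF2AK2 lowest and IRF3 highest.

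Reads matching neither form of the same events had ratios of 0.598 to 0.690 in 5 of these genes and 0.378 in IRF3, against a median of 0.593 over all genes. The part of unspliced RNA in the ratios was not tested, and fewer cells that express a gene and less RNA per cell cannot be told apart in bulk samples. Among the other pathway genes, 69 had enough reads, with a median ratio of 0.305, 10 above the upper quartile of all genes and 18 below the lower. The highest were TLR8 (81 and 70 reads, ratio 1.16), CCL5 (34 and 31, 1.10), OAS2 (38 and 42, 0.905), IFNLR1 (124 and 164, 0.756) and SAMD9L (40 and 56, 0.714). The lowest were PTPN2 (46 and 599, 0.0768), DHX36 (8 and 87, 0.0920), IFI44 (32 and 283, 0.113), DHX9 (39 and 312, 0.125) and PNPT1 (7 and 53, 0.132). The 36 genes listed as effectors induced by interferon had a median of 0.302, with 5 above the upper quartile of all genes and 7 below the lower. Beside the 38 and 42 reads of OAS2 that fit a form, those matching neither form numbered 878 and 1203. Reads matching neither form numbered 258 and 217 for TLR8 and 268 and 361 for CCL5. For IFNLR1 they numbered 69 and 103, and for SAMD9L 106 and 154.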

How the data were processed

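RNA sequencing libraries from 4 samples, 2 per group, were made with ScriptSeq v2, per the labels' protocols. Reads were aligned with STAR 2.7 to hg38, per the submitters' processing notes. The file headers show MISO summaries of skipped exons, 1 per group, and 1 comparison. No source used here gives the MISO version, the event set or how the samples of a group were combined. The deposited Ψ is a fraction from 0 to 1 with a credible interval, and the deposited Bayes factor is a ratio of evidence for a difference over none. Read numbers per isoform class were parsed from the deposited text columns.

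Events were matched to GENCODE release 29, reduced to 1 per skipped exon (most isoform-specific reads, 39120 exons), and compared with at least 10 such reads per group, which left 8228. Fisher's exact test was adjusted by Benjamini-Hochberg over these. The 2-isoform model used a read length of 76 nt, which among 9 lengths tried lay closest to the deposited Ψ (Pearson correlation across exons 0.997 and 0.999). It was tried on simulated reads drawn from the same model, with no reads matching neither form. Intron subtraction was therefore not tested by simulation. It took all reads matching neither form as intron reads spread over the intron length, though their positions are not known. Scaling multiplied scrambled reads by 0.211. Ratios per gene needed 50 reads. Python 3.11.15, numpy 2.4.6, pandas 2.3.3, scipy 1.17.1 and matplotlib 3.10.9 were used. The genes, lists and criteria were chosen with earlier results of these data known. Named were, for each member gene, every called exon and the best-covered one, and for the other pathway genes every called exon, the 3 largest differences in each direction and the 5 highest and lowest read ratios; other member exons named were chosen after their values were seen. The sequence of 1 GBP3 region is not reported here.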

Additional observations from a re-analysis of the deposited data

How the results depend on the processing

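Of the 3 exons called higher in the 9 genes, 0 were called with a Bayes factor of at least 100, with Fisher's exact test or with scaled scrambled reads, and 1 with the inclusion share (ADAR, 307 nt, on the same Bayes factor) or after intron subtraction (GBP3, 212 nt; ADAR had no reads left to compare). With no skipping read in either group, the GBP3 forms could not be called by Fisher's test or the inclusion share. No setting called a member exon lower. Over all exons, 255 higher and 73 lower became 126 and 38 with a Bayes factor of at least 100, 139 and 45 with 20 reads, 430 and 214 with no minimum, 67 and 0 with Fisher's test and 109 and 31 with scaled reads; 5 reads gave 115 lower and the inclusion share 6 lower. The 1 other pathway exon called became 0 with a Bayes factor of at least 100, 20 reads, Fisher's test, subtraction or scaling, and 2 with 5 reads or no minimum, the last with 1 lower. With the inclusion share the differences of EIF2AK2 (0.00565) and the 173 nt MAVS exon (0.00787) turned positive. Median read ratios of the member genes with enough reads (6, but 7 with at least 10 reads and 3 with at least 200), the other pathway genes and all genes were 0.266, 0.291 and 0.302 over all events of a gene, 0.312, 0.232 and 0.227 with isoform-specific reads, 0.478, 0.462 and 0.518 with reads of all 4 classes, 0.272, 0.311 and 0.375 with at least 10 reads and 0.225, 0.246 and 0.254 with at least 200. The causes were not tested. No paired analysis was possible because each group was deposited as 1 read set, and for the same reason no replicate could be left out.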

Other observations

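The 307 nt ADAR exon, the 391 nt GBP3 form and the IFITM3 exon have in common that no coding transcript of the annotation holds them and that a transcript marked for nonsense-mediated decay does. The 391 nt form contains the whole 212 nt form, which a coding transcript uses and which was called too. After subtraction of intron reads the ADAR exon, the 391 nt form and the IFITM3 exon were no longer called. Of all compared exons, 925 were in no coding transcript but in a transcript marked for nonsense-mediated decay. Of these 925, 82 (8.86%) were called higher and 3 lower. Of 5442 coding exons, 68 (1.25%) were called higher and 61 lower. Exons in untranslated regions of coding transcripts, the kind of the 242 nt ADAR exon, were called higher in 35 of 531 (6.59%). Exons of noncoding transcripts only were called higher in 48 of 1031 (4.66%), and exons not annotated in 22 of 299 (7.36%). These kinds were not matched for scrambled Ψ. At a scrambled Ψ of at most 0.25, 12.0% of all compared exons were called higher. Above 0.9 none of 3779 could be, since Ψ cannot rise by 0.1 there. After subtraction of intron reads the model of 2 isoforms called 76 of the 925 and 83 of the coding exons higher. The counts above come from the authors' values, so the 2 sets differ in the model as well as in the subtraction. Over all compared exons the model called 320 higher without subtraction and 258 with it, and its calls without subtraction were not split by kind. The 3 compared exons in the 9 genes found only in transcripts marked for nonsense-mediated decay included 2 called higher, and the other was the 879 nt IRF3 form. An 86 nt GBP3 exon was also found only in such a transcript and had too few reads to compare. These shares describe 1 read set per group.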
